A study of Mus musculus with 6 samples.

Results

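The 10 genes described here, Anln, Ect2, Racgap1, Kif23, Kif20a, Prc1, Aurkb, Birc5, Incenp and Cit, encode proteins of the central spindle, the contractile ring and the chromosomal passenger complex. They were chosen by name for this role, and each was found on 1 transcript cluster (a probe set for 1 transcribed locus) annotated to that gene alone, out of 19938 genes on such clusters. The hearts came from C57BL/6J mice at postnatal day 14. One group of 3 hearts was from mice given ETX for 1 week (replicates 6, 7 and 10) and the other group of 3 from mice given the vehicle, phosphate-buffered saline or PBS, over the same time (replicates 3, 9 and 12). The labels name no transgene, do not spell out ETX and give neither dose nor the sex of the animals. Each heart was 1 sample of total RNA on 1 Affymetrix array and is described as a biological replicate. Whole tissue holds myocytes together with endothelial cells, fibroblasts, macrophages and blood cells, so fewer cells of a type and less RNA per cell cannot be told apart. Nuclei were not counted in these data, and the transcripts give no measure of binucleation.

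Cytokinesis splits the cytoplasm after the chromosomes have separated. PRC1 and kinesins bundle the microtubules of the central spindle, centralspindlin (KIF23 with RACGAP1) activates the exchange factor ECT2 there, ECT2 loads RhoA with GTP, and RhoA drives a ring of actin and myosin that anillin and citron kinase hold to the membrane. The chromosomal passenger complex, with the kinase Aurora B, INCENP, survivin (Birc5) and borealin (Cdca8), directs these steps. In the mouse heart many myocytes go through a last round of mitosis without completing cytokinesis in the first weeks after birth, which leaves them with a pair of nuclei, and this is why the genes are followed at this age.

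Cell cycle promoters of this kind often hold a cell cycle homology region, here searched as TTTGAA or TTCGAA, and CCAAT boxes bound by NF-Y. Promoter windows from RefSeq (GRCm38.p6, 250 bases before and 50 after a start) were used for 7 of the 10 genes. None was used for Kif20a, Aurkb and Incenp, whether because none was listed or because it was left out. The counts below therefore describe a part of the 10 genes, whereas the shares of all windows were not limited to these genes. On either strand TTTGAA was present in 5 of the 7 windows (Anln, Ect2, Racgap1, Kif23 and Prc1), against 17.9% of all 32851 windows, and TTCGAA in 0 of 7 (1.56% of all). CCAAT was present in 4 of 7 (Ect2, Racgap1, Kif23 and Prc1), against 37.4%. The E2F-like strings GCGGGAA and GCGCGAA were in 0 of 7, against 4.60% and 1.59%. The counts use the first listed start of a gene, and no matches overlapped each other. The 250 bases before the start are printed for Ect2, Prc1 and Kif23, which hold these strings and were among the larger differences between the groups. They are also printed for Cit, which holds none and differed least. Of the genes not printed, Racgap1 holds both strings and differed by 0.28 (log2), Anln holds TTTGAA only (0.51) and Birc5 holds neither (0.23). Whether the strings go with the size of the difference was not tested. Capitals mark TTTGAA and CCAAT or its reverse complement ATTGG, and the Prc1 window is that of the second of its starts.
Ect2 (chr3:27153879-27154128, minus strand): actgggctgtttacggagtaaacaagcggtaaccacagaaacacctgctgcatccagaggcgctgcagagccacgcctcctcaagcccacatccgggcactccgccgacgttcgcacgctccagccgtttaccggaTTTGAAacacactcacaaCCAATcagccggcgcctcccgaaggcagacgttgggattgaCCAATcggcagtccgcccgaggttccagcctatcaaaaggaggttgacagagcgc
Prc1 (chr7:80294226-80294475, plus strand): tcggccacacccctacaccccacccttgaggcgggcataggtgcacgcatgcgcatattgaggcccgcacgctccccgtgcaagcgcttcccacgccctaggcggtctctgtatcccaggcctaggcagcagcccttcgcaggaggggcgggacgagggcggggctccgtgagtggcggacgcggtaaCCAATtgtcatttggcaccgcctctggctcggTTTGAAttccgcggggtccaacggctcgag
Kif23 (chr9:61946800-61947049, minus strand): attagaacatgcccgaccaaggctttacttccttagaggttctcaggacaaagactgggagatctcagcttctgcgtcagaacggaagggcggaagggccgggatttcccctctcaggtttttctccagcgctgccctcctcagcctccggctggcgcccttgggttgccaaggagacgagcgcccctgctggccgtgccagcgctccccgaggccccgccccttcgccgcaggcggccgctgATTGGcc
Cit (chr5:115845406-115845655, plus strand): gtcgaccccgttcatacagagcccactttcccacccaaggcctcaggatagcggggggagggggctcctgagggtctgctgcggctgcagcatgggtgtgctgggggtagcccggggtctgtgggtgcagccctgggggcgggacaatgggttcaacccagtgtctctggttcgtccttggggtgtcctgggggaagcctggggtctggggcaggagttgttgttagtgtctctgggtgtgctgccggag
In the Prc1 window a CCAAT began 62 bases before the start and TTTGAA 30 bases before it. In that of Ect2, TTTGAA began 114 and CCAAT 96 and 55 bases before the start. In Kif23, ATTGG began 7 bases before the start, and TTTGAA lay just past it. A match of letters is a description of the sequence and not a binding site.

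All 10 transcripts were higher on average in the ETX hearts, by 0.07 (Cit) to 0.51 (Kif23) on the log2 scale or 1.05-fold to 1.42-fold, where 48.4% of the 14953 genes tested differed in that direction. None passed the test: 0 of 10 had a limma adjusted p under 0.05, against 3.56% of all genes tested in either direction, 1.14% higher and 2.43% lower in ETX. At an unadjusted p under 0.05, 6 of the 10 were higher (Anln, Ect2, Kif23, Prc1, Aurkb and Incenp), against 8.86% of all genes. In 3 of 10 (Anln, Birc5 and Incenp) the ETX and PBS values did not overlap, against 11.6% of all genes with ETX above; 16.1% of all genes, and 0 of the 10, had ETX below without overlap. The median difference of the 10 was 0.30, and that of all genes tested -0.0063. The signals were of middling brightness, with means at the 35.5th (Prc1) to 51.7th (Ect2) percentile of all genes, and every heart lay above the value of 3.45 under which a gene's mean counted as dim. All 10 therefore passed the filter. The SDs of 3 hearts ran from 0.03 (Cit in PBS) to 0.38 (Anln in ETX).

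**Figure D1:**
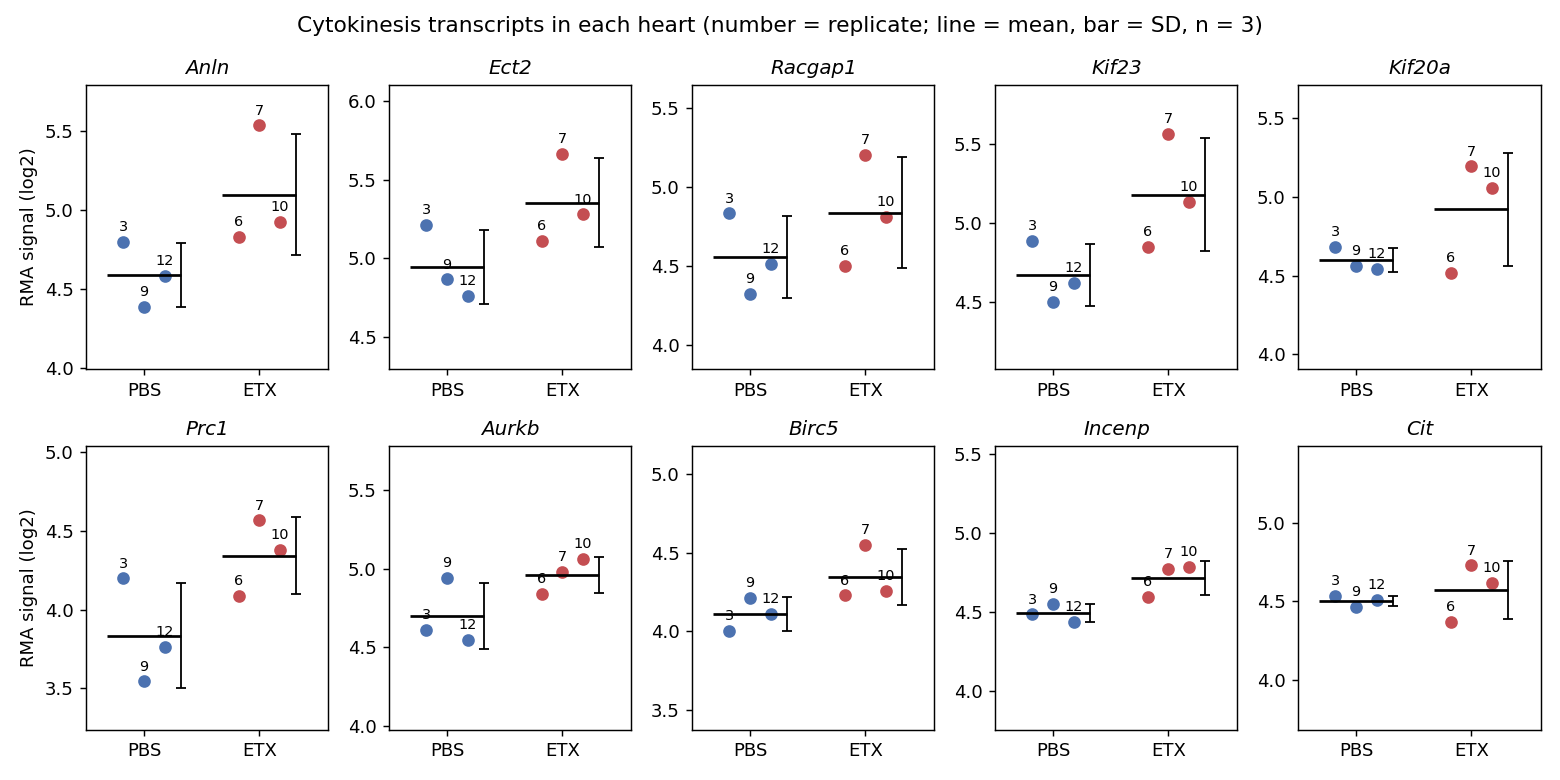
RMA signal (log2, vertical axis) of each of the 10 transcripts in the 3 PBS hearts (blue) and 3 ETX hearts (red); the number is the replicate, the line the mean and the bar the SD. ETX replicate 7 lay above every PBS heart in all 10 panels, whereas ETX replicate 6 lay under the highest PBS heart in 7 of them; the vertical axis spans the same log2 range in each panel but does not start at 0.

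Kif23, the kinesin of centralspindlin, was at 4.89, 4.50 and 4.62 in PBS replicates 3, 9 and 12 and at 4.84, 5.56 and 5.13 in ETX replicates 6, 7 and 10. ETX replicates 7 and 10 lay above all PBS hearts, and replicate 6 just under PBS replicate 3. The difference was 0.51 (4.67 ± 0.20 in PBS and 5.18 ± 0.36 in ETX, SD, n = 3 per group, limma adjusted p = 0.146). Racgap1, the GTPase-activating subunit, was at 4.83, 4.32 and 4.51 in PBS and 4.50, 5.20 and 4.81 in ETX in the same order of replicates. The groups overlapped widely, with PBS replicate 3 second highest of all, and the difference of 0.28 did not pass (limma adjusted p = 0.422). Ect2, the exchange factor, was at 5.21, 4.87 and 4.76 in PBS and 5.11, 5.66 and 5.28 in ETX, a difference of 0.40 (limma adjusted p = 0.192). PBS replicate 3 exceeded ETX replicate 6 for all 3 of these genes.

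Of the ring proteins Anln had a large and Cit a small difference, which were not tested against each other. Anln, the scaffold that links actin, myosin and septins to the membrane, was at 4.80, 4.39 and 4.58 in PBS and 4.83, 5.54 and 4.92 in ETX. The groups did not overlap, by a margin of 0.03 between ETX replicate 6 and PBS replicate 3, and the difference was 0.51 (4.59 ± 0.20 and 5.10 ± 0.38, limma adjusted p = 0.165). Cit, citron kinase, which acts late at the midbody, was at 4.53, 4.47 and 4.51 in PBS and 4.37, 4.73 and 4.62 in ETX. Its lowest heart was ETX replicate 6, and the difference was 0.07 with a 95% interval of -0.15 to 0.29 (limma adjusted p = 0.724).

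Prc1, the microtubule bundler of the central spindle, was the dimmest of the 10 and varied most in PBS. It was at 4.20, 3.54 and 3.76 in PBS and 4.08, 4.56 and 4.38 in ETX, a difference of 0.51 (3.84 ± 0.33 and 4.34 ± 0.24, limma adjusted p = 0.148). ETX replicate 6 lay between PBS replicates 3 and 12. Kif20a, a kinesin that brings the passenger complex to the central spindle, was at 4.68, 4.56 and 4.54 in PBS and 4.52, 5.19 and 5.05 in ETX. ETX replicate 6 was its lowest heart of all 6 while the other ETX hearts were its highest, and the difference of 0.32 did not pass (limma adjusted p = 0.283). Without ETX replicate 6 it was 0.53 and passed (limma adjusted p = 0.0479), the only call of any of the 10 under the alternatives tried.

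The chromosomal passenger genes had differences of 0.23 to 0.26 and SDs of 0.11 to 0.18 in ETX. Incenp, the scaffold of the complex, was at 4.49, 4.55 and 4.44 in PBS and 4.59, 4.77 and 4.79 in ETX, without overlap. The difference was 0.23 (4.49 ± 0.06 and 4.72 ± 0.11, limma adjusted p = 0.141). Birc5 (survivin) was at 4.0, 4.21 and 4.11 in PBS and 4.23, 4.55 and 4.26 in ETX, also without overlap but with 0.01 between ETX replicate 6 and PBS replicate 9 (difference 0.23, limma adjusted p = 0.23). Aurkb, the kinase, was at 4.61, 4.94 and 4.55 in PBS and 4.84, 4.98 and 5.06 in ETX, where PBS replicate 9 lay above ETX replicate 6 (difference 0.26, limma adjusted p = 0.228). Cdca8, borealin, had a mean under the quartile of 3.45 and was not tested; it was at 3.19, 3.23 and 3.35 in PBS and 3.17, 3.49 and 3.24 in ETX.

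**Figure D2:**
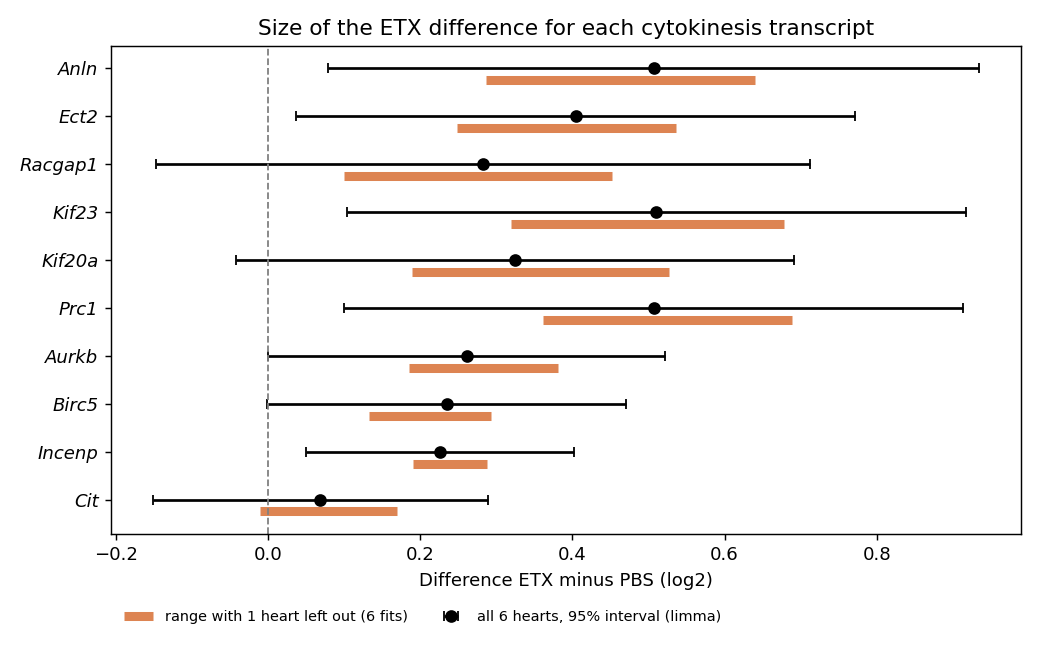
Difference ETX minus PBS (log2, horizontal axis) of each transcript over all 6 hearts with its 95% limma interval (black), and the range of the difference over the 6 fits that leave out 1 heart (orange). The intervals of Anln, Ect2, Kif23, Prc1, Aurkb and Incenp lie above 0 before adjustment over all genes, and only the range of Cit reaches below 0.

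Single hearts stood apart in most of the 10 transcripts. ETX replicate 7 was the highest heart for 8 of the 10 and ETX replicate 10 for the other 2, Aurkb and Incenp. ETX replicate 10 lay above all PBS hearts for 9 of 10, Racgap1 being the exception. ETX replicate 6 lay under the highest PBS heart for 7 of 10. The mean of the 10 log2 values was 4.62, 4.44 and 4.44 in PBS replicates 3, 9 and 12 and 4.59, 5.07 and 4.83 in ETX replicates 6, 7 and 10, so ETX replicate 6 fell inside the PBS range. This mean differed by 0.33 between the groups, by 0.21 without ETX replicate 7 and by 0.45 without ETX replicate 6. Without ETX replicate 7 the differences of Anln, Ect2, Racgap1, Kif23, Kif20a and Birc5 shrank to 0.29, 0.25, 0.10, 0.32, 0.19 and 0.13, and that of Cit was -0.01. With 1 heart left out, the smallest differences of Prc1, Aurkb and Incenp came without other hearts. They were 0.36 without PBS replicate 9, 0.18 without PBS replicate 12 and 0.19 without ETX replicate 10. Among the PBS hearts the 3 passenger genes were highest in replicate 9, and the other 7 genes were highest in replicate 3, an order that was noticed after the values were seen.

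**Figure D3:**
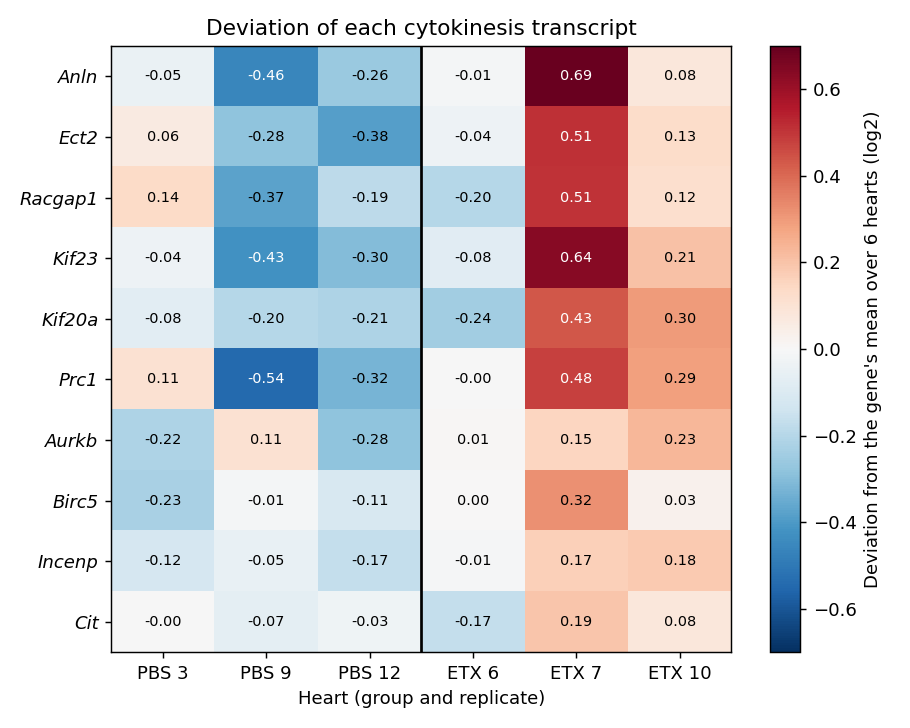
Deviation of each transcript from its own mean over the 6 hearts (log2, colour and printed value), with hearts in columns and the groups parted by a line. The ETX 7 column is positive in all 10 rows, and the ETX 6 column runs from -0.24 to 0.01.

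Mitosis and replication genes gave the context for these values. The mean of 44 genes of mitotic entry and the spindle was 4.67, 4.50 and 4.52 in PBS and 4.61, 5.03 and 4.85 in ETX in the same order of replicates, with ETX replicate 6 again inside the PBS range. The mean of the 10 cytokinesis genes minus that of the mitosis genes was -0.04, -0.07 and -0.08 in PBS and -0.02, 0.05 and -0.02 in ETX. These values are given without a test, since the genes were chosen with results known, and the zero of this difference has no meaning between probe sets. The mean of the 35 replication genes was 4.99, 4.89 and 4.87 in PBS and 5.01, 5.22 and 5.13 in ETX, without overlap. Of 40 mitosis genes tested 36 lay above 0 (median 0.27), with 17 higher and 2 lower at an unadjusted p under 0.05. Of these 40, 1 passed, against 3.56% of all genes in either direction. The gene that passed was the condensin subunit Ncapg, which rose from 3.92 ± 0.08 to 4.32 ± 0.05 (limma adjusted p = 0.0302). Ncapg lost the call in each of the 6 fits without 1 heart (up to 0.0964). Cyclin genes Ccna2 (difference 0.62, limma adjusted p = 0.162) and Ccnb2 (0.44, 0.112) and the checkpoint kinase Bub1 (0.70, 0.0807) did not pass, nor did Ndc80 of the kinetochore (0.49, 0.0655), the topoisomerase Top2a (0.70, 0.104), Mki67 (0.39, 0.357) and Cdk1 (0.27, 0.287). Top2a passed without ETX replicate 6 (limma adjusted p = 0.0314), and with the mean of its clusters its difference was 0.32 (limma adjusted p = 0.273). The 2 mitosis genes lower at an unadjusted p under 0.05 were Cenpf (-0.41, limma adjusted p = 0.117) and Bub3 (-0.18, 0.227). For Cenpf the groups did not overlap. Of 35 replication genes 33 lay above 0 (median 0.20), with 14 higher and 0 lower at an unadjusted p under 0.05, against 8.86% and 13.1% of all genes. Of these 35, 1 passed, against 3.56% of all genes in either direction. This was the thymidine kinase Tk1, which lost the call in each of the 6 fits without 1 heart (limma adjusted p up to 0.0861). ETX lay above PBS without overlap for 14 of 35 replication and 11 of 40 mitosis genes (11.6% of all genes). It lay below without overlap for 0 and 1 (16.1% of all). Rfc3 (0.35, 0.0649), Mcm10 (0.25, 0.107) and Chaf1a (0.34, 0.112) were the next by p.

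**Figure D4:**
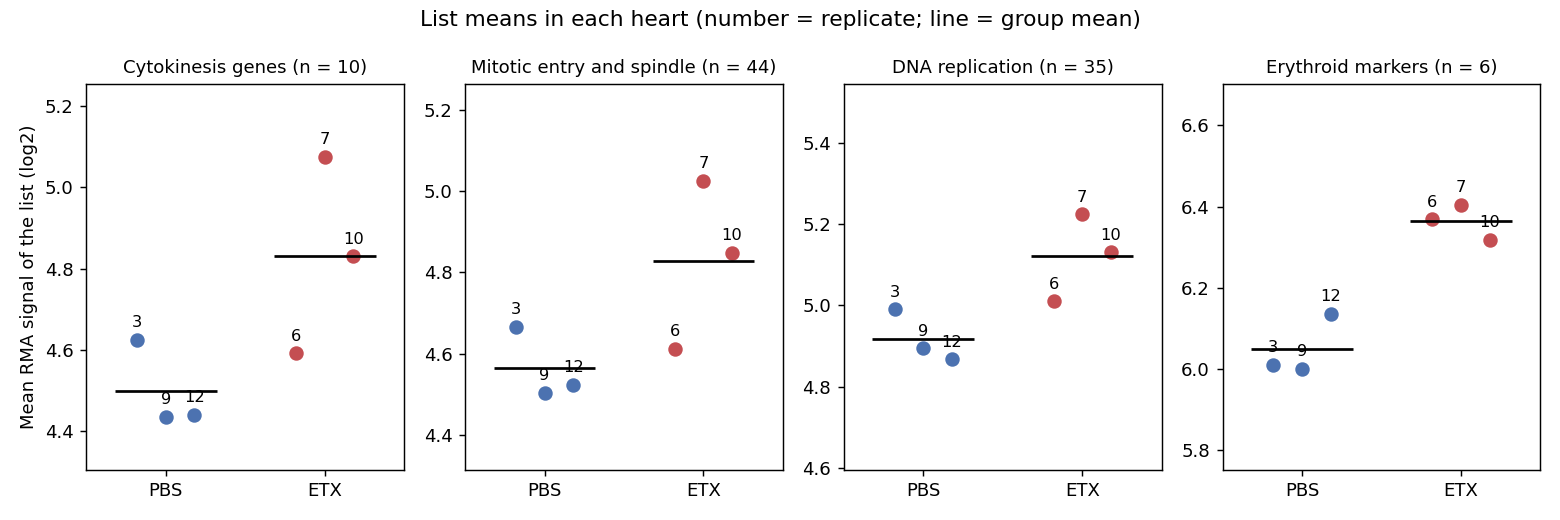
Mean RMA signal (log2, vertical axis, not from 0 and of equal span) of 10 cytokinesis genes, 44 mitosis genes, 35 replication genes and 6 erythroid markers in each heart; numbers are replicates and lines group means. ETX replicate 6 lies inside the PBS range for the cytokinesis and mitosis genes and above it for the replication genes and the erythroid markers.

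Of 56 listed genes of furrow signalling, the contractile ring and abscission 50 were tested, and 0 passed in limma, while 5 were higher and 13 lower at an unadjusted p under 0.05. For all genes these shares were 8.86% and 13.1%. In furrow signalling these mitotic genes lay above 0: Cep55, which organises the midbody (difference 0.52, limma adjusted p = 0.145), the polo kinase Plk1 (0.37, 0.112), the kinesin Kif4 (0.40, 0.187), and the scaffold Iqgap3 (0.37, 0.0694). Plk1 was at 4.63, 4.37 and 4.25 in PBS and 4.65, 4.89 and 4.81 in ETX, without overlap. Of the broadly expressed genes of the same list, Rhoa was at 10.61, 10.76 and 10.76 in PBS and 10.39, 10.38 and 10.50 in ETX (difference -0.29, limma adjusted p = 0.0735), and its kinase Rock1 (-0.34, 0.0735) did not pass either. The list as a whole had 7 of 15 tested genes above 0 and a median of -0.02.

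Contractile ring and septin genes lay mostly below 0, with 4 of 17 tested above it and a median of -0.18. The non-muscle myosin chain Myh9 was at 8.58, 8.90 and 8.62 in PBS and 8.40, 8.33 and 8.22 in ETX (difference -0.38, limma adjusted p = 0.0755), whereas its relative Myh10 differed by -0.02 (0.935). Septin9 (-0.21, 0.0995), the regulatory light chain Myl12a (-0.24, 0.127) and Actb (-0.24, 0.125) were the next by p. At an unadjusted p under 0.05, 7 genes were lower and 0 higher, against 13.1% and 8.86% of all genes. Rhoa, Rock1 and Myh9 passed with a variance trend in the fit (limma adjusted p = 0.0334, 0.04 and 0.0451) and when the dimmer genes up to the median were left out. These genes are also active in non-dividing cells. Markers of endothelium and macrophages were lower in the same hearts, as given below, and the part of these cells in the lower values was not tested. Abscission genes, which cut the midbody, had 10 of 18 above 0 and a median of 0.03. Pdcd6ip (-0.20, limma adjusted p = 0.212), Vps4b (-0.15, 0.267), Ist1 (-0.12, 0.35) and Chmp6 (0.16, 0.38) had the smallest p there, and none passed.

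**Figure D5:**
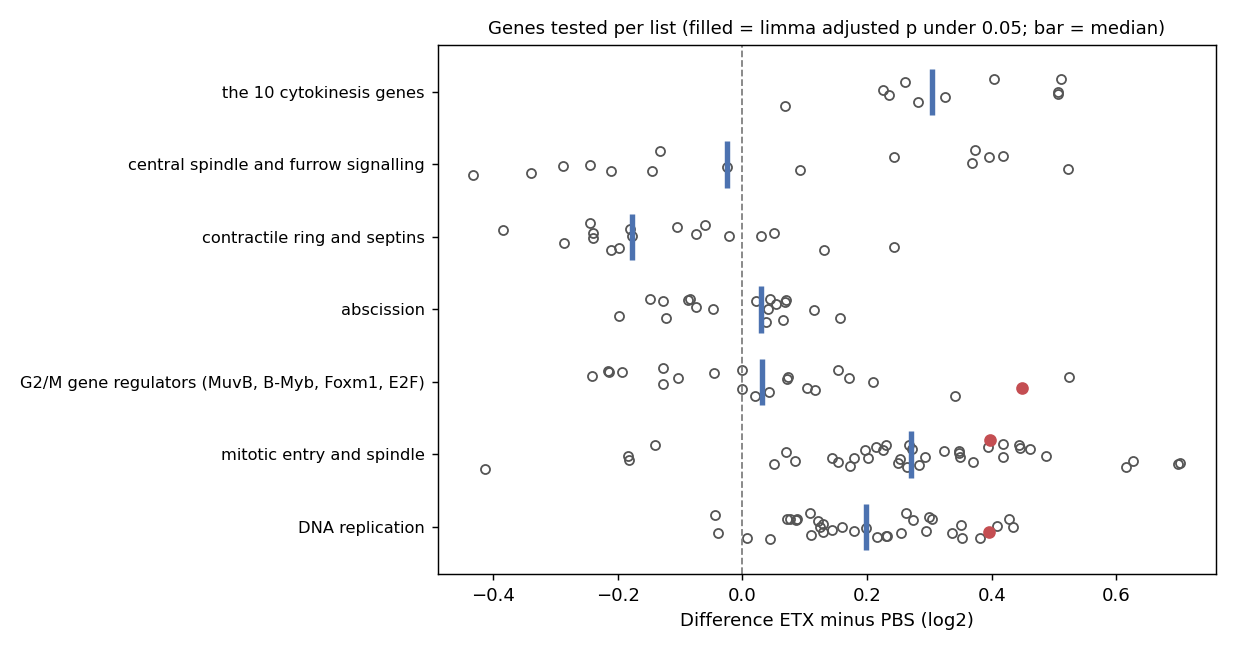
Difference ETX minus PBS (log2, horizontal axis) of every tested gene (circle) of 7 lists, with the list's median as a bar and genes with a limma adjusted p under 0.05 filled. The 10 cytokinesis genes all lie to the right of 0 with a median of 0.30, the contractile ring and septin genes have a median of -0.18, and the abscission genes one of 0.03.

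Foxm1, a transcription factor of mitotic genes, rose from 4.07, 4.23 and 4.04 in PBS to 4.47, 4.67 and 4.55 in ETX, so that ETX replicate 6 too lay above all PBS hearts (1.36-fold, limma adjusted p = 0.0322). It lost the call in 5 of the 6 fits without 1 heart (up to 0.116). E2f8 (difference 0.52, limma adjusted p = 0.0722) and Mybl2 (0.34, 0.269) did not pass, nor did E2f1 (0.04, 0.878), Nfya of the CCAAT-binding NF-Y (-0.22, 0.124) and Lin37 of the MuvB core (-0.24, 0.183). Of 22 regulators tested 12 lay above 0, with a median of 0.03.

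Of 13 tested genes tied to myocyte ploidy and binucleation, Foxm1 rose and Cdkn1c fell, and the others did not pass. Of all genes tested 3.56% passed in either direction. Cdkn1c, an inhibitor of cyclin-dependent kinases, was at 6.90, 7.01 and 6.96 in PBS and 6.41, 6.51 and 6.53 in ETX (1.39-fold lower, limma adjusted p = 0.0158), and lost the call in 2 of the 6 fits without 1 heart (up to 0.0672). Tnni3k, a cardiac kinase tied to myocyte ploidy, had 8.43 ± 0.11 in PBS against 8.39 ± 0.06 in ETX (limma adjusted p = 0.824), cyclin G1 (Ccng1) at 11.61 ± 0.10 and 11.66 ± 0.13 (0.779) and lamin B2 (Lmnb2) at 4.83 ± 0.07 and 4.87 ± 0.01 (0.769). Lbr, the lamin B receptor, differed by -0.28 (0.14). The list's median was 0.03.

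By root-mean-square distance of profiles centred on their mean over the 6 hearts, the genes most like the mean of the 10 were Spc24 of the kinetochore (0.0372 on the log2 scale), Fam78a (0.0396), the helicase Brip1 (0.0409), the spindle protein Dlgap5 (0.0477) and Mcm6 of the replicative helicase (0.0479). Exo1, an exonuclease (0.0606), Ncaph of condensin (0.0607) and Chaf1b of chromatin assembly (0.0639) followed. The distances of the 10 genes themselves, which make up that mean, ran from 0.0903 (Kif20a) to 0.195 (Aurkb). This is a likeness over 6 hearts, from the same arrays.

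Markers of other cells moved with the groups, and except where a value is given their part in these differences was not tested. Of all genes tested 1.14% were called higher and 2.43% lower in ETX. Of 6 erythroid markers 5 were higher on average in ETX, with a mean of 6.00 to 6.14 in PBS and 6.32 to 6.40 in ETX; Alas2 and Slc4a1 rose (limma adjusted p = 0.0348 and 0.0385), and Gata1 (difference 0.27, 0.0672) and Klf1 (0.22, 0.241) did not pass. Of the 6 fits without 1 heart, Alas2 lost the call in 5 (limma adjusted p up to 0.0891) and Slc4a1 in 4 (up to 0.136). Erythroid precursors divide, and blood cells are among the sources of RNA in a heart. All 8 macrophage markers lay below 0 (mean 6.70 to 6.86 in PBS, 6.24 to 6.34 in ETX, 5 called lower), as did 8 of 10 endothelial markers (9.01 to 9.06 and 8.76 to 8.89, 3 called lower). In these 6 fits the macrophage markers C1qa and C1qb lost the call in 4 each and Adgre1 in 6, whereas the calls of C1qc and Csf1r held in each. Of the called endothelial markers Tie1 lost the call in 2 of these fits, Cdh5 in 5 and Esam in 6. Of 11 thymocyte and lymphocyte markers only 6 passed the filter, with a mean of all 11 of 3.45 to 3.68 in PBS and 3.48 to 3.52 in ETX; Cd4 was called lower and lost the call in 5 of the 6 fits (limma adjusted p up to 0.144). The 11 ventricular markers had means of 12.03 to 12.07 in PBS and 11.95 to 12.08 in ETX (1 of 11 above 0, 0 called in limma, 1 higher and 1 lower at an unadjusted p under 0.05), so the labelled tissue matched its markers. Of fibroblast markers 2 of 8 and of pericyte and smooth muscle markers 1 of 8 lay above 0, with means of 9.51 to 9.67 and 8.61 to 8.73 in PBS and 9.41 to 9.61 and 8.49 to 8.64 in ETX. The fibroblast marker Pdgfra fell by 0.50 (limma adjusted p = 0.0302) and lost the call in 5 of the 6 fits (up to 0.101). Postn, another fibroblast marker, was higher by 0.35 with all 3 ETX hearts above PBS, and did not pass (limma adjusted p = 0.155). In the brown fat list (mean 6.46 to 6.54 in PBS, 6.61 to 6.96 in ETX), Ucp1 was at 5.72 in ETX replicate 6 and between 3.57 and 3.77 in the other hearts. Cidea of that list rose by 0.47, with all 3 ETX hearts above PBS (limma adjusted p = 0.0266), and lost the call in 5 of the 6 fits (up to 0.101). Of the 5 brown fat genes tested 3 lay above 0 and 2 below (median 0.12). Ppargc1a was among the lower ones (-0.23, limma adjusted p = 0.306).

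The 9 lung markers stood out in PBS replicates 3 and 9 (marker means 5.93 and 7.33, against 3.55 to 3.67 in the others), and atrial transcripts in PBS replicate 3 and ETX replicates 6 and 7 (7.77 to 7.96, against 5.73 to 6.33). The mean of the 10 genes differed by 0.35 with the lung score in the fit, by 0.27 with the atrial score, by 0.39 without both PBS hearts with lung transcripts, which leaves 1 PBS heart, and by 0.39 when PBS replicate 3 and ETX replicates 6 and 7 were left out, so that ETX was 1 heart. Single genes moved by more. With the atrial score Ect2 differed by 0.26, Racgap1 by 0.14 and Prc1 by 0.35. Aurkb differed by 0.45 with the lung score. Without both PBS hearts with lung transcripts Aurkb differed by 0.41 and Ect2 by 0.59. When PBS replicate 3 and ETX replicates 6 and 7 were left out, Birc5 differed by 0.09, Kif20a by 0.50, Cit by 0.13 and Prc1 by 0.72. None of the 10 passed in those fits.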

How the data were processed

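The deposited values are log2 signals; the authors ran RMA in Affymetrix Expression Console, per the submitters' processing notes. Versions and filters were not given in the sources used here. RMA equalises the distributions of the arrays and compresses differences of dim transcripts. The number of arrays limits the precision.

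Of 35556 clusters 21789 carried 1 gene symbol in the platform annotation, giving 19938 genes (brightest cluster per gene). Genes with a mean under the lower quartile (3.45) were left out, and ETX was compared with PBS in limma 3.58.1 (R 4.3.3; lmFit, eBayes, two-sided, Benjamini-Hochberg over 14953 genes, threshold 0.05). On simulated data for this comparison 89% of genes changed 1.5-fold and 100% of those changed 2-fold were recovered. Beside them 12 unchanged genes were called, and 1 gene was called in a simulation with no change. The changed genes were drawn at random from all genes tested, so these shares are not those of the 10 genes. Noise was drawn independently for each gene, so shifts of a heart shared by many genes were not simulated. The standard errors of the differences of the 10 ran from 0.08 (Incenp) to 0.19 (Racgap1). Figures used matplotlib 3.10.9 in Python 3.11.15.

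The members and lists were chosen with earlier results of these data known, so no list is tested. Named are the 10 genes, a fixed set of cell cycle genes and the 8 genes nearest in profile. Of each list the called genes and up to 4 with the smallest p are named. Cenpf and Bub3 are also named, as the mitosis genes lower at an unadjusted p under 0.05. Of the marker lists the called genes and a few others of the rule are printed, and the rest are given as counts and means. The 18 alternatives comprise filters on dim genes, eBayes options, array weights, other normalizations, mean of clusters, marker scores as covariates and hearts left out; the fit without the hearts with high atrial transcripts was added after seeing the data. Replicates are biological per the labels.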

Additional observations from a re-analysis of the deposited data

How the results depend on the processing

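Of the 10 cytokinesis genes 9 kept a positive difference in every alternative that tested them, and Cit turned to -0.01 without ETX replicate 7. With each heart left out in turn 0 to 1 of the 10 passed, and the difference of their mean ran from 0.21 to 0.45. Each other alternative called 0 of the 10. The number of other cytokinesis genes called was 3 with the median filter, 3 with the eBayes trend and 3 with trend and robust fitting, against 0, and 0 with any heart left out. The count over all genes was 533, and 909 with the median filter, 870 with the trend, 957 with trend and robust fitting, 75 with the lung score and 89 with the atrial score as a covariate, which take a degree of freedom. It ran from 94 to 241 with 1 heart left out, and was 19 without both PBS hearts with lung transcripts and 2 without the 3 hearts rich in atrial transcripts; a single heart left in a group is assumed to vary like the others. Centring arrays on their median moved the median of all genes by -0.03, and the mean of the 10 genes then differed by 0.30. No paired analysis was possible because the groups share no replicate number. The values carry no detection call, so low signals such as Cdca8 are the least certain.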
